A study of Mus musculus with 101 samples.

Results

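The genes described here are Rb1, Rbl1 and Rbl2, which encode the 3 mouse pocket proteins, RB and its relatives p107 and p130. They were taken by symbol and are 3 of the 43513 gene symbols in the deposited copy number matrices. Rb1 was chosen by its measured copy losses in these tumours, so its segment values, scores and loss counts are a description with no test. A deep loss was set at a log2 segment value of -1 or below. Rbl1 and Rbl2 were taken as its relatives in the same protein family, and were tested in fits over all genes.

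Pocket proteins bind E2F transcription factors and hold back the genes that drive entry into S phase. Phosphorylation by cyclin-dependent kinases releases the E2F factors, and inhibitors of these kinases keep the brake on. RB acts mainly on the activating E2F proteins, whereas p107 and p130 pair with the repressive E2F4 and E2F5 and with the MuvB proteins in the DREAM complex, which silences cell cycle genes in resting cells. Loss of RB1 is known from human triple-negative breast cancer.

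The series holds low-coverage DNA sequencing of 98 mammary tumours from mice and of 3 spleens, made to set tumours with the Brca1 p.L1363P variant beside those of other models. The groups were 24 KB1(L1363P)P tumours (12 sarcomatoid, 9 carcinosarcoma, 3 adenocarcinoma), 31 KB1P tumours (29 adenocarcinoma, 1 carcinosarcoma, 1 sarcomatoid), 25 KB2P tumours (all adenocarcinoma) and 18 KP tumours (10 sarcomatoid, 2 carcinosarcoma, 6 adenocarcinoma). The labels give these short names only. As background, they stand for mice in which Cre under the keratin 14 promoter deletes Trp53 in epithelial cells, in KP alone, in KB1P together with Brca1 and in KB2P together with Brca2, and KB1(L1363P)P carries the Brca1 variant. Trp53 deletion is thus shared by all tumour groups, and the 3 spleens came from a KB1(L1363P)P, a KB1P and a KP mouse. The labels give no age. In KB1(L1363P)P, 3 numbers in the titles are each shared by a pair of tumours (replicates 6 and 7, 18 and 19, and 23 and 24), and in KB1P 4 numbers are each shared by a pair (replicates 1 and 14, 2 and 11, 3 and 12, and 10 and 18). Autosomal segment profiles correlated at 0.083 to 0.59 within the KB1(L1363P)P pairs and at 0.012 to 0.39 within the KB1P pairs. Pairs with different numbers reached 0.95 in KB1(L1363P)P and 0.70 in KB1P (KB1PM titles counted apart). The spleens carry numbers that tumours also have, and the labels do not say whether a number marks a mouse. Since they do not state that each tumour is from a mouse of its own, a p-value here reflects the spread among the sampled tumours, which may be partly technical.

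Each gene has a log2 ratio, a log2 segment value (the ratio after segmentation) and a whole-number copy score with 2 as neutral, all made by the authors. A loss below means a score under 2, which by its rounding needs a segment value of -0.42 or lower, and a gain means a score over 2, which needs 0.32 or higher. In bulk DNA, fewer copies per cell and fewer cells with the loss cannot be told apart. Read depth is unknown. The noise between neighbouring genes ranged from 0.037 to 0.091 (log2) in tumours and from 0.025 to 0.027 in spleens, and no member had a spleen segment value farther than 0.0027 from 0. Library series, numbered in the labels, follow genotype closely: all 20 tumours of series 3196 and all 5 of series 3499 were KB2P, and all 10 of series 5750 were KP sarcomatoid tumours. In KB2P, series and genotype therefore cannot be told apart. KB2P replicates 10 and 12 had segment profiles with a correlation of 0.985 across genes (0.458 at most in other KB2P pairs), and 10 KB1P tumours carry KB1PM in their titles, while 1 more has an L1363P library name. Without those 11 KB1P tumours and with 1 of the KB2P pair, 86 tumours remained, with Rb1 losses in 31, Rbl2 losses in 33 and Rbl1 gains in 17, against 34, 38 and 21 of all 98. Within KB1P, Rb1 was then lost in 13 of 20 tumours and gained in 0, against 15 and 2 of 31. Leaving out the 11 KB1P tumours moved the KB1P mean of Rb1 from -0.30 to -0.49. Its difference from KB2P went from 0.08 to -0.10, with no test.

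Rb1, on chromosome 14 (GRCm38 chr14:73192858-73325951), was lost in 34 of 98 tumours, and 5 of these losses were deep. Losses were called in 3 of 24 KB1(L1363P)P tumours, 15 of 31 KB1P tumours, 13 of 25 KB2P tumours and 3 of 18 KP tumours. The mean segment value was -0.17 ± 0.28 in KB1(L1363P)P tumours (SD, n = 24), -0.30 ± 0.56 in KB1P tumours (n = 31), -0.39 ± 0.47 in KB2P tumours (n = 25) and -0.09 ± 0.20 in KP tumours (n = 18). The lowest, median and highest values were -0.86, -0.09 and 0.19 in KB1(L1363P)P, -1.26, -0.09 and 1.41 in KB1P, -1.44, -0.42 and 0.40 in KB2P, and -0.63, -0.03 and 0.22 in KP. All 4 groups overlapped, and the spread within KB1P and within KB2P exceeded the distance between any of the means.

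By histology, none of the 23 sarcomatoid tumours had an Rb1 loss, against 3 of 12 carcinosarcomas and 31 of 63 adenocarcinomas. Sarcomatoid values ran from -0.25 to 0.22. No share over all genes is given beside these histology counts, so they are not read as particular to Rb1. The 3 losses in KB1(L1363P)P were -0.86 in an adenocarcinoma and -0.85 and -0.84 in carcinosarcomas, and those in KP were -0.63 and -0.43 in adenocarcinomas and -0.44 in a carcinosarcoma. Among adenocarcinomas alone, Rb1 was lost in 1 of 3 KB1(L1363P)P, 15 of 29 KB1P, 13 of 25 KB2P and 2 of 6 KP tumours. Within library series 5289, which holds 3 genotypes, the adenocarcinoma counts were 1 of 2 in KB1(L1363P)P, 6 of 8 in KB1P and 0 of 2 in KP. KB1P losses were called in 3 of 8 adenocarcinomas of series 2766 and in 6 of 11 with no series number, and KB2P losses in 10 of 20 of series 3196 and 3 of 5 of series 3499.

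**Figure D1:**
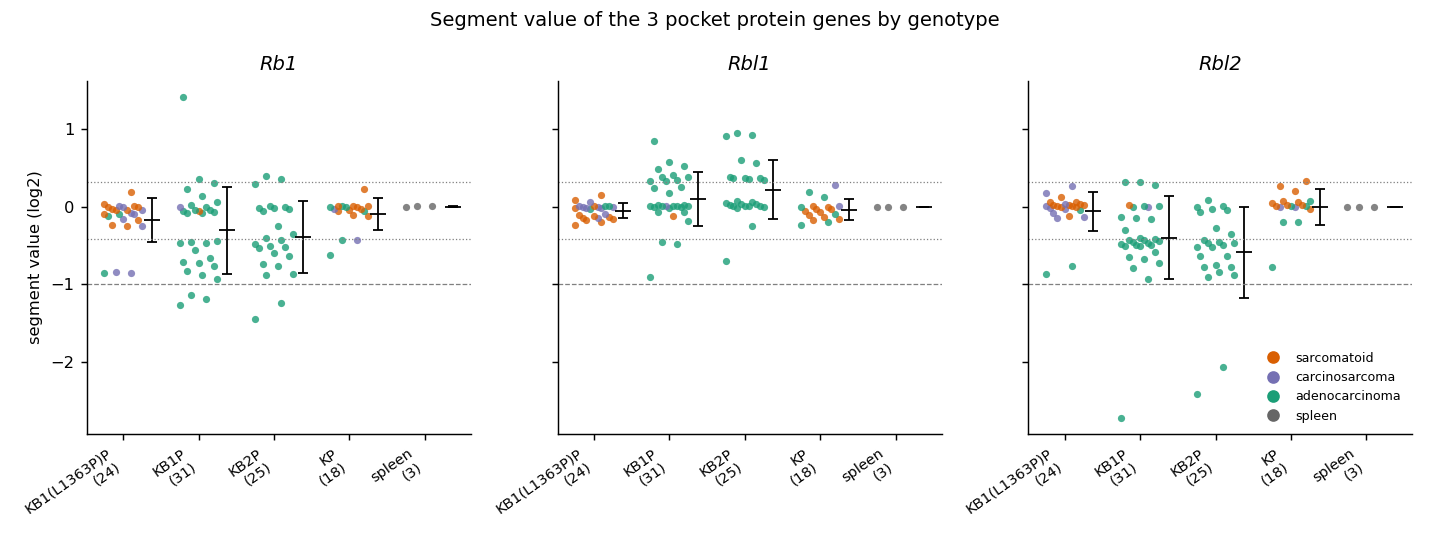
Log2 segment value (y) of Rb1, Rbl1 and Rbl2 in each sample (points, coloured by histology), by genotype with the number of samples (x). Black bars are mean ± SD, dotted lines the bounds of a loss and a gain call (-0.42 and 0.32) and the dashed line the deep loss threshold of -1. The low Rb1 and Rbl2 values and the high Rbl1 values lie mostly in KB1P and KB2P adenocarcinomas.

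The 5 deep losses of Rb1 were all in adenocarcinomas, 3 KB1P (of which replicate 29 carries KB1PM in its title) and 2 KB2P. Their segment values were -1.19 (KB1P replicate 6), -1.26 (KB1P replicate 7), -1.13 (KB1P replicate 29), -1.44 (KB2P replicate 5) and -1.24 (KB2P replicate 25), and the log2 ratios of the gene itself were -1.07, -1.18, -1.08, -1.49 and -1.24. Every one of them had a copy score of 1, and no tumour had a score of 0 at Rb1. The tumours just outside the threshold were KB1P replicate 3 at -0.93, KB1P replicate 16 at -0.88 and KB2P replicate 16 at -0.88. The 3 KB1(L1363P)P losses (-0.86 in an adenocarcinoma, -0.85 and -0.84 in carcinosarcomas) would also count as deep at -0.8. That deep losses were only in KB1P and KB2P adenocarcinomas therefore depends on the threshold.

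None of these deep losses was small. The deep run around Rb1 spanned 50.4 Mb in KB1P replicate 6, 18.1 Mb in KB1P replicate 7, 15.3 Mb in KB1P replicate 29, 58.5 Mb in KB2P replicate 5 and 66.8 Mb in KB2P replicate 25, and in both KB2P tumours it reached the last placed gene of the chromosome. The stretch shared by all 5 was chr14:71819365-77112263, a length of 5.29 Mb with 63 placed genes, 33 of them protein coding. It starts 1.44 Mb from the middle of Rb1 on the centromeric side, at a pseudogene, and ends at Ccdc122. Among the neighbours it holds are Fndc3a, Cysltr2 (a leukotriene receptor), Rcbtb2, Lpar6 (a lysophosphatidic acid receptor gene nested within Rb1), Itm2b, Med4 (a Mediator subunit) and Sucla2 (a subunit of succinyl-CoA ligase), each deep in the same 5 tumours. Setdb2, Kpna3, Trim13 and Dleu2, the farther neighbours, were deep in 2 tumours. Elsewhere on the same chromosome, Bnip3l was deep in 3 and Bap1 in 0. Losses were called in 33 tumours at Bnip3l and in 12 at Bap1, against 34 at Rb1.

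A segment value of -1 or below in at least as many tumours as Rb1 was found for 0.841% of all genes. On chromosome 14 itself Rb1 did not mark the peak: the gene most often deep was Scel, which starts at 103513061, with 8 tumours, and 80.7% of the chromosome's 1309 placed genes were deep less often than Rb1. In KB1P replicates 6 and 7 and KB2P replicate 25 no autosomal gene had a lower segment value than Rb1, whereas KB2P replicate 5 reached -4.14 elsewhere in the genome. Yap1, Met, Brca1, Brca2 and Trp53 all lay between -0.49 and 0.67 in the 5 tumours with a deep Rb1 loss.

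**Figure D2:**
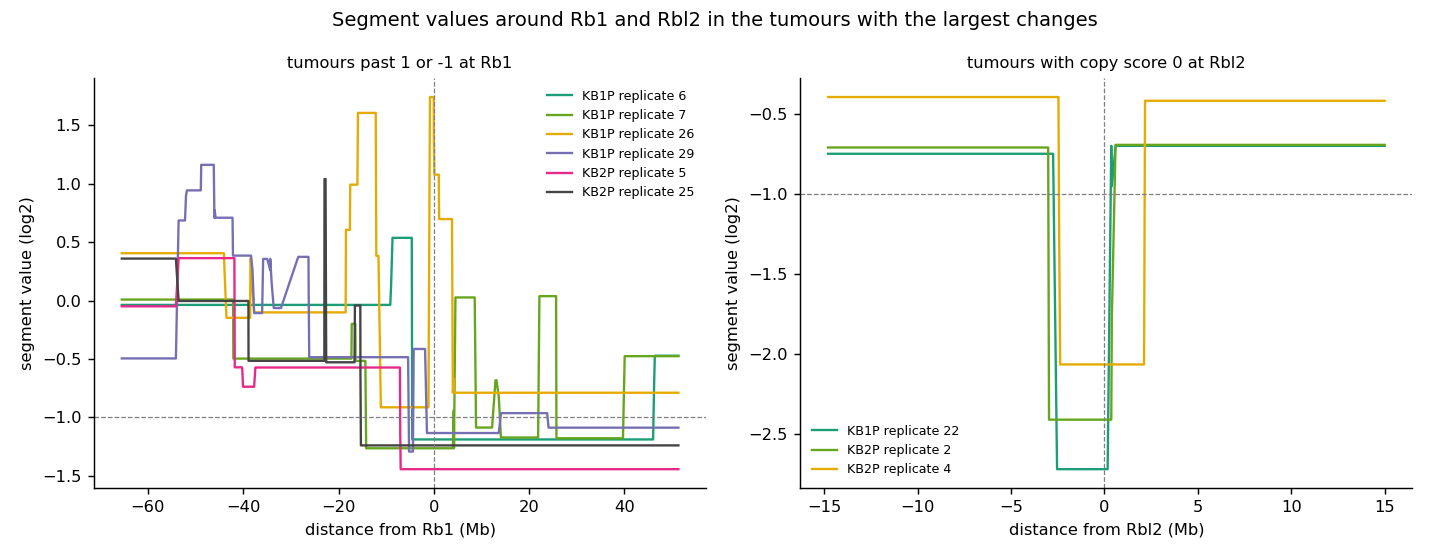
Log2 segment value (y) of the placed genes against distance from the gene in Mb (x). Left, the 5 tumours with an Rb1 deep loss and KB1P replicate 26 with the Rb1 gain, along the whole chromosome; right, the 3 tumours with a score of 0 at Rbl2, within 15 Mb. The Rb1 deep losses run for 15.3 to 66.8 Mb, the Rbl2 runs at -1 or below for 2.79 to 4.58 Mb.

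The 29 shallow losses of Rb1 had segment values from -0.93 to -0.42. Of these, 6 covered at least 90% of the chromosome's placed genes, 23 covered part of it, and 0 were shorter than 10 Mb. Their lengths ran from 11.3 to 116.9 Mb with a median of 77.2 Mb. The shortest, in KB2P replicate 21 at -0.64, ran over chr14:62119308-73385289, to the end of Itm2b, the gene next to Rb1, so this tumour's boundary lies close to Rb1 on 1 side. Rb1 was lost more often than 92.0% of the placed genes on chromosome 14, where the most often lost gene had 36 losses, and more often than 95.6% of all genes, whose median was 11 losses.

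Rb1 was gained in 4 tumours, 2 KB1P (both with KB1PM in their titles) and 2 KB2P. In KB1P replicate 26, an adenocarcinoma, the segment value was 1.41 and the copy score 5. This was the one tumour with a step between neighbouring segments inside a member gene. Rcbtb2, Lpar6 and Fndc3a on one side had 1.74 (score 7), Itm2b, Med4 and Sucla2 on the other had 1.08 (score 4), and the value given for Rb1 equals the mean of both. Genes above 1 around it covered 1.87 Mb, next to a stretch at -0.91. The other 3 gains were at 0.36 (KB1P replicate 27), 0.35 (KB2P replicate 1) and 0.40 (KB2P replicate 24).

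Rbl2 encodes p130, the pocket protein of resting cells, and lies on chromosome 8 (chr8:91070057-91123844, plus strand). Rbl1 encodes p107, made mainly in dividing cells, and lies on chromosome 2 (chr2:157145893-157204534, minus strand). The 250 bases before each start, from RefSeq on GRCm38.p6, are shown because they are the control regions inside the runs described next: the Rbl2 stretch (chr8:91069807-91070056) lies within the deep interval of that gene, and the Rbl1 stretch (chr2:157204535-157204784) adjoins the gained gene. Capitals mark the E2F-type motif TTTCGCGC, searched together with TTTGGCGC on both strands.
Rbl1: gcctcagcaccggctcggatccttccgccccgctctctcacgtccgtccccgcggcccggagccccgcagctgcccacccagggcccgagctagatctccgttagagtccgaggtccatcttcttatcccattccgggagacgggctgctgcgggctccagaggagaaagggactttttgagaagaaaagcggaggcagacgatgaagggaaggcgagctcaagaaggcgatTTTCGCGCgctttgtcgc
Rbl2: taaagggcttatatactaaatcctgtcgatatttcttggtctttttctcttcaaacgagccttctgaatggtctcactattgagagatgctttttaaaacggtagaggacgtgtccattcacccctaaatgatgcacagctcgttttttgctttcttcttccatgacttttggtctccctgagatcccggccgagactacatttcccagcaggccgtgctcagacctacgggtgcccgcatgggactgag
The Rbl1 stretch holds 1 match, with its first base 18 before the start, and the Rbl2 stretch holds none of these letters. Of 27025 promoter stretches of this length, 182 (0.673%) hold either motif.

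Rbl2 was lost in 38 of 98 tumours, and every one of these was an adenocarcinoma (38 of 63, against 0 of 23 sarcomatoid tumours and 0 of 12 carcinosarcomas). As for Rb1, these histology counts have no share over all genes beside them and are not read as particular to Rbl2. By genotype, losses were called in 2 of 24 KB1(L1363P)P, 18 of 31 KB1P, 17 of 25 KB2P and 1 of 18 KP tumours. The lowest, median and highest segment values were -0.86, 0.01 and 0.27 in KB1(L1363P)P, -2.72, -0.43 and 0.32 in KB1P, -2.41, -0.49 and 0.09 in KB2P, and -0.78, 0.02 and 0.33 in KP. The median KB1P and the median KB2P tumour thus lay past the loss bound, and the medians of the other genotypes lay near 0, although the ranges overlapped.

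Mean Rbl2 segment values were -0.06 ± 0.25 in KB1(L1363P)P tumours (SD, n = 24), -0.40 ± 0.54 in KB1P tumours (n = 31), -0.59 ± 0.58 in KB2P tumours (n = 25) and -0.01 ± 0.23 in KP tumours (n = 18). With limma fitted over all genes, Rbl2 was higher in KB1(L1363P)P than in KB1P by 0.34 (SE 0.12, adjusted p = 0.0426) and higher than in KB2P by 0.53 (SE 0.13, adjusted p = 0.00501). It was lower in KB1P than in KP by a difference of -0.39 (SE 0.13, adjusted p = 0.0306) and lower in KB2P than in KP by a difference of -0.58 (SE 0.14, adjusted p = 0.00181). The shares of all genes called in these 4 comparisons were 13.5%, 12.8%, 13.5% and 12.0%, in that order. KB1(L1363P)P differed from KP by -0.05 (SE 0.14, adjusted p = 0.996; 0% of all genes called, 15 genes at an unadjusted p under 0.05), and KB1P from KB2P by 0.19 (SE 0.12, adjusted p = 0.449; 1.36% called). The fit pools the spread of all 4 genotypes, and the SDs of KB1(L1363P)P and KP were below those of KB1P and KB2P. The SE between KB1(L1363P)P and KP is thus larger than their own spread would give. Their lack of a call does not show that they are alike. Within library series 5289 alone, the KB1(L1363P)P difference from KB1P was 0.20 (adjusted p = 0.265) and the KB1P difference from KP was -0.22 (adjusted p = 0.595). With library series as a random block in limma their adjusted p was 0.0656 and 0.0511. In every random block fit here, the 11 KB1P tumours with no series number formed a block of their own.

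These genotypes differ in histology, and the same comparisons among the 63 adenocarcinomas gave no call for Rbl2. KB1(L1363P)P adenocarcinomas had Rbl2 at -0.77, -0.86 and -0.04, lost in 2 of 3 tumours, against a mean of -0.43 ± 0.55 in KB1P (SD, n = 29), -0.59 ± 0.58 in KB2P (n = 25) and -0.18 ± 0.31 in KP (n = 6). The 3 KB1(L1363P)P values lay within the range of each of the other genotypes' adenocarcinomas except for the value of -0.86, which was below every KP value. The sarcomatoid tumours that share a number with the first and second of these, replicates 6 and 18, had Rbl2 at 0.02 and 0.05, with no loss. Differences of KB1(L1363P)P from KP, KB1P and KB2P were -0.37 (SE 0.36, adjusted p = 0.990), -0.13 (SE 0.31, adjusted p = 0.860) and 0.03 (SE 0.31, adjusted p = 0.981) in limma, where 0% of all genes were called in each comparison, with 2173, 1815 and 1851 genes at an unadjusted p under 0.05. KB1P and KB2P adenocarcinomas differed from those of KP by -0.25 (SE 0.23, adjusted p = 0.924; 1.03% of all genes called) and -0.41 (SE 0.23, adjusted p = 0.939; 0.0529% called), and from each other by 0.16 (SE 0.14, adjusted p = 0.784; 0.138% called).

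Within a genotype, Rbl2 averaged 0.02 ± 0.06 in KB1(L1363P)P sarcomatoid tumours (SD, n = 12) and 0.01 ± 0.14 in its carcinosarcomas (n = 9), a difference of 0.01 (SE 0.19, adjusted p = 0.976 in limma; 0.0919% of all genes called). In KP it averaged 0.10 ± 0.12 in sarcomatoid tumours (SD, n = 10) and -0.18 ± 0.31 in adenocarcinomas (n = 6), a difference of 0.28 (SE 0.22, adjusted p = 0.999; 0.085% called). Rbl1 differed by -0.07 (SE 0.13, adjusted p = 0.976) and -0.04 (SE 0.15, adjusted p = 0.999) in the same 2 comparisons.

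**Figure D3:**
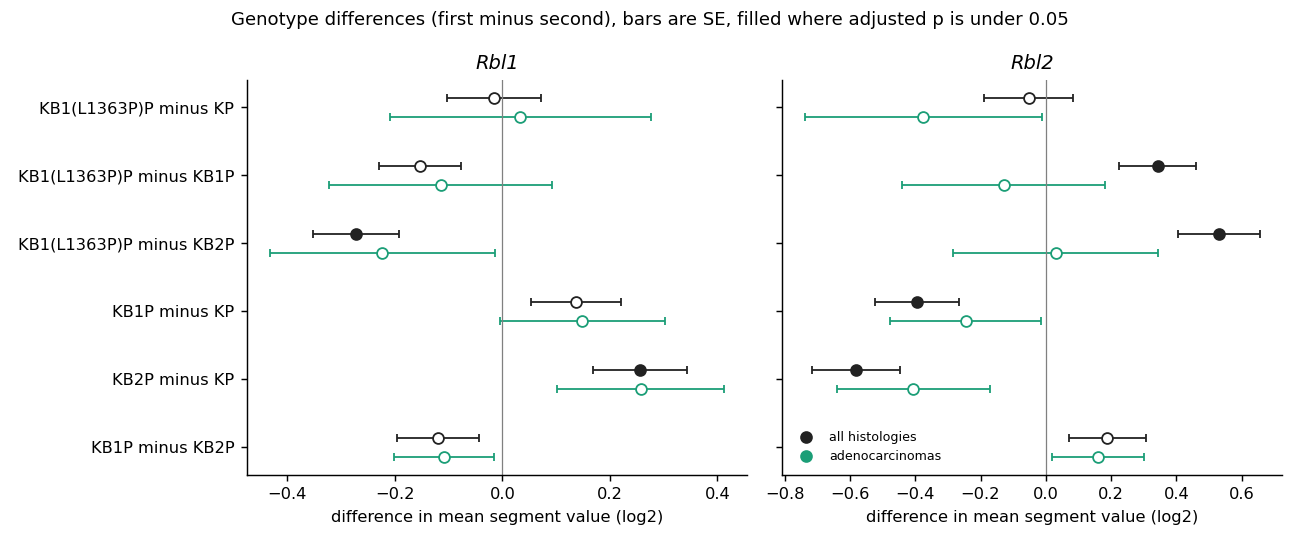
Difference in mean log2 segment value (x) of Rbl1 and Rbl2 for each pair of genotypes (y, first minus second), over all histologies (black) and over adenocarcinomas (green), with standard errors from limma. Filled points have an adjusted p under 0.05; for Rbl2 these are 4 of 6 comparisons over all histologies and 0 of 6 among adenocarcinomas.

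The frequency of Rbl2 losses was also compared by a two-sided Fisher's exact test on every gene. Losses were fewer in KB1(L1363P)P (8.33% of tumours) than in KB1P (58.1%, adjusted p = 0.0392, exact) and KB2P (68.0%, adjusted p = 0.0193, exact). They were more frequent in KB1P and in KB2P than in KP (5.56%), with exact adjusted p-values of 0.0171 and 0.0152. The test called 3.63%, 5.36%, 4.68% and 3.20% of all genes in these 4 comparisons. It was run over all histologies and not among adenocarcinomas, which held every Rbl2 loss. Among adenocarcinomas Rbl2 was lost in 2 of 3 KB1(L1363P)P, 18 of 29 KB1P, 17 of 25 KB2P and 1 of 6 KP tumours. Genotype and histology are therefore not separated in these frequencies. KB1(L1363P)P and KP (adjusted p = 1, exact; 0% called, with 0 genes at an unadjusted p under 0.05) and KB1P and KB2P (adjusted p = 1, exact; 0% called, with 3061 such genes) were not told apart in Rbl2 loss.

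In 3 adenocarcinomas Rbl2 had a copy score of 0. The segment values were -2.72 in KB1P replicate 22 (whose title carries KB1PM), -2.41 in KB2P replicate 2 and -2.07 in KB2P replicate 4, with log2 ratios of -2.74, -2.69 and -2.10. They stand far from the next lowest tumours, which had -0.94, -0.90 and -0.88. In each of the 3, no autosomal gene was lower than Rbl2.

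The runs at -1 or below were short, at 2.79 Mb in KB1P replicate 22, 3.55 Mb in KB2P replicate 2 and 4.58 Mb in KB2P replicate 4, inside a chromosome whose median was -0.70, -0.71 and -0.40. They share chr8:88647315-91313291, a length of 2.67 Mb with 19 placed genes. The 8 protein-coding genes in it are Nod2, a sensor of bacterial cell walls, Cyld, a deubiquitinase that restrains NF-kappaB signalling, the transcription factor genes Sall1 and Tox3, the chromatin remodeller gene Chd9, Rbl2, Aktip and Rpgrip1l, a gene of the ciliary transition zone. Rbl2 lies toward one end, with Rpgrip1l as the last gene. A score of 0 in at least as many tumours as Rbl2 was found for 41 of 43513 genes, or 0.0942%. Of these, 18 lay on chromosome 8 (chr8:88696878-91313291), 5 on chromosome 1 and 18 had no placed position.

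Most of the 38 Rbl2 losses were broad when measured as the run of genes with a score under 2, which in the 3 tumours above is longer than the run at -1 or below (64.8, 115.9 and 40.6 Mb in the order given). These runs spanned from 4.08 to 126.2 Mb with a median of 77.0 Mb, 7 were nearly the whole chromosome, and 1 was under 10 Mb, in KB2P replicate 21 at -0.63. Rbl2 was lost more often than 97.3% of the placed genes on chromosome 8, where the maximum was 39 losses, and more often than 98.0% of all genes. A KP sarcomatoid tumour had the single Rbl2 gain, at 0.33 over the whole chromosome.

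**Figure D4:**
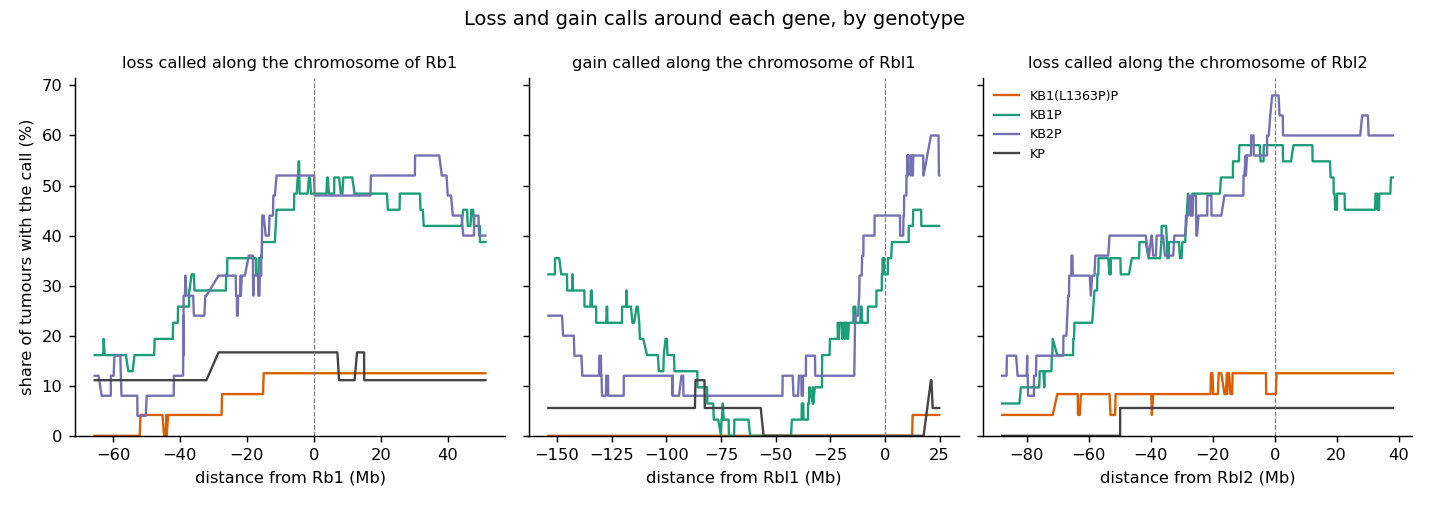
Share of tumours with a call in % (y) against distance in Mb from Rb1 (loss), Rbl1 (gain) and Rbl2 (loss) along their chromosomes (x), by genotype (lines). Loss shares of KB1P and KB2P are broad around Rb1, with 48.4% and 52.0% at the gene, and reach 68.0% in KB2P at Rbl2. Gain shares at Rbl1 are 32.3% in KB1P and 44.0% in KB2P. Between Rbl1 and the chromosome end the KB1P gain share rises above its value at the gene.

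Rbl1 was gained in 21 tumours and lost in 4. Gains were called in 0 of 24 KB1(L1363P)P, 10 of 31 KB1P, 11 of 25 KB2P and 0 of 18 KP tumours, and the losses were 3 KB1P tumours and 1 KB2P tumour. All 21 gains were in adenocarcinomas (21 of 63, against 0 of 23 sarcomatoid tumours and 0 of 12 carcinosarcomas), the histology of 3 of the 24 KB1(L1363P)P tumours, 29 of the 31 KB1P, all 25 KB2P and 6 of the 18 KP. Here too no share over all genes is given for the histology counts, and they are not read as particular to Rbl1. The lowest, median and highest segment values were -0.24, -0.02 and 0.15 in KB1(L1363P)P, -0.91, 0.01 and 0.85 in KB1P, -0.70, 0.06 and 0.94 in KB2P, and -0.23, -0.04 and 0.28 in KP. The KB1(L1363P)P and KP tumours stayed within a narrow band that the other genotypes exceeded on both sides. No tumour had an Rbl1 deep loss or a value of 1 or above.

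Mean Rbl1 values were -0.05 ± 0.10 in KB1(L1363P)P (SD, n = 24), 0.10 ± 0.34 in KB1P (n = 31), 0.22 ± 0.38 in KB2P (n = 25) and -0.04 ± 0.13 in KP (n = 18). In limma over all genes, Rbl1 was lower in KB1(L1363P)P than in KB2P by a difference of -0.27 (SE 0.08, adjusted p = 0.0148) and higher in KB2P than in KP by 0.26 (SE 0.09, adjusted p = 0.0385). The remaining 4 pairs were not called, with differences of -0.02 for KB1(L1363P)P minus KP, -0.15 for KB1(L1363P)P minus KB1P, 0.14 for KB1P minus KP and -0.12 for KB1P minus KB2P. For Rbl1 too, the pooled spread exceeds that within KB1(L1363P)P and KP, so their lack of a call does not show that they are alike. Among adenocarcinomas no pair was called. Both calls were lost with library series as a random block, at adjusted p of 0.0508 and 0.0675, and the call against KP also with the near-identical KB2P pair counted as 1 (0.23, adjusted p = 0.0690), with log2 ratios (0.0676) and with centred profiles (0.0566).

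Rbl1 gains were fewer in KB1(L1363P)P (0% of tumours) than in KB1P (32.3%, adjusted p = 0.0202, exact; 21.2% of all genes called) and KB2P (44.0%, adjusted p = 0.00595, exact; 11.4% called) by Fisher's exact test. They were more frequent in KB2P than in KP (adjusted p = 0.0216, exact; 7.62% called), and the excess in KB1P over KP did not pass (adjusted p = 0.0591, exact; 12.4% called). KB1P and KB2P were not told apart (adjusted p = 1, exact; 0.00919% called), nor were KB1(L1363P)P and KP with 0 gains each (0% called, with 1 gene at an unadjusted p under 0.05). For Rbl1 losses and Rbl2 gains no pair passed, with adjusted exact p-values of 0.434 or more. The gained runs were long, from 11.6 to 178.9 Mb with a median of 38.5 Mb, and 31 gains was the maximum on chromosome 2, against 21 at Rbl1.

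Rb1 and Rbl2 were both lost in 22 of 98 tumours, all of them adenocarcinomas, among which 31 of 63 had an Rb1 loss and 38 of 63 an Rbl2 loss. These were 1 of 24 KB1(L1363P)P, 13 of 31 KB1P, 8 of 25 KB2P and 0 of 18 KP tumours. Rb1 without Rbl2 was lost in 12 tumours and Rbl2 without Rb1 in 16. At least 1 member was lost in 4 of 24 KB1(L1363P)P, 20 of 31 KB1P, 22 of 25 KB2P and 4 of 18 KP tumours, and all 3 members in 2 KB1P tumours. Among adenocarcinomas, at least 1 was lost in 2 of 3 KB1(L1363P)P, 20 of 29 KB1P, 22 of 25 KB2P and 3 of 6 KP tumours. Genotype and histology are not separated in these counts, and no count for other sets of genes is given beside them. In the 3 tumours with a score of 0 at Rbl2, Rb1 had segment values of -0.04, 0.30 and -0.40 and no loss call, and in the 5 with a deep Rb1 loss, Rbl2 had -0.48, -0.49, -0.49, -0.03 and -0.36. With so few tumours in either set, nothing is read from their lack of overlap. Across the 98 tumours the segment values correlated at 0.18 between Rb1 and Rbl2, -0.04 between Rb1 and Rbl1 and -0.03 between Rbl1 and Rbl2, as a description over tumours that share libraries and genotypes.

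**Figure D5:**
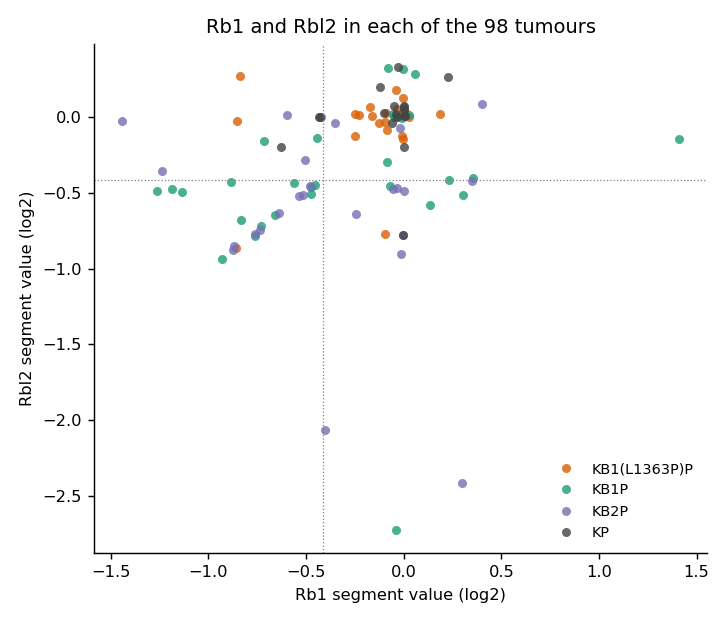
Log2 segment value of Rbl2 (y) against that of Rb1 (x) in each of the 98 tumours, coloured by genotype; dotted lines mark the loss bound of -0.42. The lower left area holds the 22 tumours with both losses, and the 3 lowest Rbl2 values lie between -2.72 and -2.07.

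Outside its own chromosome, no gene followed a member closely over the 98 tumours. The nearest were Onecut3, Nelfa and Gm14707 for Rb1 (correlations of 0.43, 0.40 and 0.39), Gm7114, Pitpnm1 and Gm20150 for Rbl1 (0.62, 0.46 and 0.44) and Gm6073, Gm10709 and Diras1 for Rbl2 (0.41, 0.40 and 0.35). On its own chromosome the stretch correlated above 0.9 with the member held 60 genes for Rb1, 225 for Rbl1 and 23 for Rbl2.

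Of 33 listed genes of the RB pathway (cyclins and kinases, their inhibitors, E2F factors and partners, and DREAM and MuvB proteins), 30 were measured. The shares called over all genes were 13.5% for KB1(L1363P)P against KB1P, 12.8% against KB2P, 13.5% for KB1P against KP and 12.0% for KB2P against KP, and the pathway counts of 7, 6, 6 and 4 of 30 are to be read beside them. Several of the genes named lie on one chromosome (Cdk2, Cdk4 and E2f7 on 10, Ccnd2, Cdkn1b and Foxm1 on 6, E2f1 and Mybl2 on 2), so they are not independent observations. In KB1(L1363P)P against KB1P, 3 of the 30 were higher and 4 lower, with a median difference of -0.04 against -0.05 over all genes. The higher ones were the kinase genes Cdk2 and Cdk4 (0.25 each) and E2f4 (0.23), and the lower ones were the cyclin gene Ccnd2 (-0.32), the inhibitor gene Cdkn1b (-0.33) and the late cell cycle factors Mybl2 (-0.29) and Foxm1 (-0.30). Against KB2P, 1 was higher, E2f4 (0.32), and 5 were lower, Ccnd2 (-0.36), Cdkn1b (-0.41), E2f1 (-0.26), Mybl2 (-0.29) and Foxm1 (-0.34), with a median of 0.02 against -0.01 over all genes. In KB1P against KP, Mybl2 and Foxm1 were higher (0.28 each), and Cdk2 and Cdk4 (-0.31 each), E2f4 (-0.31) and E2f7 (-0.27) were lower, and the median was 0.04 both over the 30 genes and over all genes. In KB2P against KP, E2f1 (0.24), Mybl2 (0.27) and Foxm1 (0.32) were higher and E2f4 (-0.41) was lower, with a median of -0.0016 against -0.0023 over all genes. No listed gene was called between KB1(L1363P)P and KP or between KB1P and KB2P, nor in any comparison among adenocarcinomas or between histologies.

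Some of these genes share a chromosome arm with a member and were called with it. E2f4, whose product is the main partner of p130, lies 14.2 Mb from Rbl2 and was lost in 35 of the 38 tumours with an Rbl2 loss, which is 97.2% of its own 36 losses. E2f1, an activating E2F gene 2.59 Mb from Rbl1, was gained in 20 of the 21 tumours with an Rbl1 gain, and Mybl2, which lies 5.91 Mb from it, also in 20 of the 21. Tfdp1, which encodes the DP1 partner of E2F proteins, lies at the other end of the Rbl2 chromosome, 77.7 Mb away, and was gained in 14 of the 38 tumours with an Rbl2 loss. Over all 98 tumours it was gained in 22, which were 0 of 24 KB1(L1363P)P, 12 of 31 KB1P, 7 of 25 KB2P and 3 of 18 KP tumours. All 38 Rbl2 losses were in adenocarcinomas, whereas the 98 include other histologies, so these counts are not on a like base.

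Tfdp1 was also the listed gene most often at a segment value of 1 or above, in 8 tumours (5 KB1P, 2 KB2P and 1 KP) with values from 1.07 to 2.88. Rbl2 was lost in 7 of these tumours and Rb1 in 6, with 1 deep loss. Over all 98 tumours Rbl2 was lost in 38 and Rb1 in 34, and among the 63 adenocarcinomas in 38 and 31. A link with Tfdp1 was not tested. E2f5 reached a segment value of 1 or above in 4 tumours (3 KB1P, 1 KB2P), Cdkn1b in 3, and Ccnd2, Cdk6 and Foxm1 in 2 each. None of the 30 pathway genes had a segment value of -1 or below in more than 1 tumour.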

How the data were processed

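Low-coverage genomic DNA libraries of 98 mammary tumours and 3 spleens were sequenced. For these samples, BWA 0.7.17, cutadapt 2.5, SAMtools 1.10, Picard and build mm10 are named per the submitters' processing notes. The labels' protocols describe 20 kb bins whose counts were adjusted for GC and mappability, and their text names a human build. Log2 ratios, their segmented log2 values and a copy score per gene are the authors' deposited values, and turning a segment value into copies and rounding gave that score for 99.9919% of the matrix. How bins were mapped to genes is not given in the sources used here. Positions came from RefSeq on GRCm38.p6, which placed 32684 of 43513 symbols.

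Samples were grouped by the genotype and histology labels. Segment values were compared across all genes with limma 3.58.1 (R 4.3.3) and call frequencies with two-sided Fisher's exact tests (SciPy 1.17.1), both with Benjamini-Hochberg adjustment over 43513 genes and a threshold of 0.05. Genes outside the members were named by rule: Rb1 neighbours, pathway genes called by genotype (at most 6 a comparison, the seventh in KB1(L1363P)P against KB1P being given to complete the count) or extreme in 2 or more tumours, and the genes most like each member. The members and lists were chosen with earlier results of these data known. Log2 ratios, centring, library series, leaving out tumours and other thresholds were tried as alternatives. The limma fit was tried on these segment values with shuffled genotype labels and planted shifts. Fisher's exact test was tried on simulated calls of independent genes, unlike the correlated neighbouring genes here.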

Additional observations from a re-analysis of the deposited data

Results flagged for a closer look

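Rbl2 had a segment value of -0.78 in KP replicate 7, an adenocarcinoma of library series 5490, which stood apart from the other 5 KP adenocarcinomas by the gap to the next value relative to the range, and is the 1 Rbl2 loss in KP. Of 6 groups of 4 to 10 tumours examined for Rbl1 and Rbl2, 1 gave such a sample, and chance alone gives about 1 in 20 groups.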

How the results depend on the processing

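Of 236 values under an alternative, 218 kept their direction and their side of the threshold or, for counts, stayed within 1.5 times. Alternatives that ended a call were, for Rbl2 in KB1(L1363P)P minus KB1P, series 5289 alone (0.20) and library series as a random block (0.34), and for Rbl2 in KB1P minus KP the same settings (-0.22 and -0.39). Series 5289 alone has fewer tumours (20 KB1(L1363P)P, 10 KB1P and 3 KP), so a call ended there is not read as an effect of series. For Rbl1 in KB1(L1363P)P minus KB2P it was the random block (-0.28), and for Rbl1 in KB2P minus KP log2 ratios (0.24), centred profiles (0.23), the random block (0.27) and KB2P replicates 10 and 12 counted as 1 (0.23), an alternative chosen after seeing the data, as was leaving out the KB1PM titles for the Rb1 counts. The Rbl1 gain excess in KB1P over KP passed with segment values beyond 0.3 (32.3 percentage points, adjusted p = 0.0469). Tested differences that changed sign were all uncalled: Rbl1 in KB1(L1363P)P minus KP in series 5289 alone (0.0088), Rbl2 between KB1(L1363P)P sarcomatoid tumours and carcinosarcomas with log2 ratios (-0.035), and Rbl2 gains in KB1P minus KP beyond 0.3 (0.896 points). Leaving out 1 of the 3 KB1(L1363P)P adenocarcinomas at a time moved Rbl2 from -0.39 to 0.023 in KB1(L1363P)P minus KB1P, from -0.23 to 0.18 against KB2P and from -0.63 to -0.22 against KP. The cause of these changes was not tested. The Rb1 deep loss count of 5 became 13 at a threshold of -0.8, 3 at -1.2 and 0 by a copy score of 0. The 13 include the 3 KB1(L1363P)P losses, so the genotypes and histologies with a deep loss change with the threshold.

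Over all genes, counts of calls moved by more than 1.5 times in several fits. In series 5289 alone KB1P minus KP had 852 calls, against 5872 over all series, and KB1(L1363P)P minus KP had 3, against 0. With the random block KB1(L1363P)P minus KB2P had 2459 against 5567, KB2P minus KP 3027 against 5226 and KB1P minus KB2P 65 against 593; with log2 ratios the last had 1001. Among adenocarcinomas log2 ratios gave 16, 66 and 229 for KB1(L1363P)P minus KB2P, KB2P minus KP and KB1P minus KB2P, against 0, 23 and 60. For KB1P minus KB2P the block gave 108, and leaving out KB1PM titles or merging the KB2P pair gave 4 each; without KB1PM titles KB2P minus KP gave 3. Without KB1(L1363P)P replicate 7 its differences from KP, KB1P and KB2P had 45, 199 and 112 calls, and without replicate 19 those from KB1P and KB2P had 163 and 116, against 0 in each. The histology contrast in KB1(L1363P)P had 0 in series 5289, against 40. No paired analysis was possible because title numbers pair tumours only within KB1(L1363P)P and within KB1P, and no number is stated to join tumours of different genotypes or, within KB1(L1363P)P, a sarcomatoid tumour to a carcinosarcoma. Averaging each of the 3 KB1(L1363P)P pairs, also chosen after seeing the data, changed no limma call for Rbl1 or Rbl2; the KB1P pairs were kept as separate tumours. Read depth is unknown, which leaves the counting error of a gene value unstated.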
